A study of Homo sapiens with 4 samples.

Results

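BET1, GOSR2, SEC22B, STX5, GOSR1, BET1L, YKT6 and USO1 act where transport vesicles from the endoplasmic reticulum (ER) meet the Golgi, and the poly(A) sites of these 8 genes were examined in esophageal squamous cell carcinoma (ESCC) cells given L-lactate. PAS-seq sequences the 3′ ends of polyadenylated RNA, so each tag marks where a transcript was cleaved, and neighbouring poly(A) sites (PAS) are joined into PAS clusters (PACs). A PAC was taken as belonging to a gene when its dominant site, the position with the most tags, lay in the span of that gene on the same strand in GENCODE 44. This gave 14 PACs in 8 genes, of 17627 PACs in all. BET1 and GOSR2 entered the set because the share of their tags at the distal PAC was higher with L-lactate in both lines. That change is therefore described below without a test.

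Both lines, KYSE30 and TE-1, are long-established cultures from human ESCC. A line contributed 1 library after 24 h in 20 mM L-lactate and 1 control library from cells that received PBS. The titles and the methods of the study give KYSE30 and TE-1 for all 4 libraries, but the cell line field of the control samples names KYSE32 and TE-3. Across PACs listed in both libraries of a pair, Spearman's rho was 0.980 between L-lactate and control of each line and 0.805 to 0.814 between lines. The PACs are not independent replicates. With 1 library per group there was no spread between cultures, and every 95% interval below covers counting error only.

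SNARE proteins sit on vesicles and on target membranes and pull the membranes together by winding into a bundle. STX5, GOSR2 (membrin), BET1 and SEC22B form the bundle that fuses ER-derived vesicles with the early Golgi. STX5 with GOSR1 (GS28), BET1L (GS15) and YKT6 forms the bundle used inside the Golgi. USO1 (p115) is not a SNARE but a long tether that holds the vesicle near the Golgi before fusion.

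The 3′ ends of BET1 and GOSR2 carry the usage changes, and the 30 bases ending at each dominant site show which signals stand there. Sequences are from GRCh38, read 5′ to 3′ along the RNA strand as DNA letters, with the poly(A) signal hexamer in capitals where it lies inside the 30 bases. BET1 is on the minus strand of chromosome 7 and both of its sites are in the last exon, exon 4 of its transcript. The proximal site is 4 nt past the stop codon, and the distal site is 982 nt further on, at the annotated end of the 3′ UTR.
BET1 proximal, chr7:93994226-93994255: tttattggattATTAAActgaggtgatgca
BET1 distal, chr7:93993244-93993273: ttttaAATAAAatatattagtcgactgtgt

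The proximal BET1 site had the variant signal AUUAAA, which ended 13 nt before the site and inside the coding part of the exon, and the distal site had the canonical AAUAAA, which ended 19 nt before it. The window of 100 nt before the distal site held 1 UGUA, the motif bound by the CFIm cleavage factor, and that before the proximal site held 0. A match is a description of the letters and not of binding.

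GOSR2 is on the plus strand of chromosome 17 and had 3 PACs, which match 3 annotated last exons. The first is 11 nt past the end of exon 5 of a short transcript, the second at the last base of exon 6 of another, 653 nt on, and the third in exon 7 of a long one, 24976 nt beyond the second. The exons of the first and the second overlap. The third exon carries a stop codon of its own, 272 nt before the site, so distal usage in GOSR2 compares transcripts with different last exons and not lengths of 1 3′ UTR. All 3 sites also lie within another gene of the same strand, ENSG00000262633, from which their tags cannot be told apart.
GOSR2 first, chr17:46941338-46941367: aagttgaggtttattttatttagaaaatca
GOSR2 second, chr17:46941991-46942020: ccaaAATAAAttcttactgtttatatccta
GOSR2 last, chr17:46966967-46966996: tgcttatttgATTAAAtgtctttgatttct

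The first and second GOSR2 sites had AAUAAA, which ended 28 nt and 20 nt before them, so that of the first site lies partly upstream of the bases shown. The third had AUUAAA at 14 nt. Of the 3 sites, the second alone followed UGUA within 100 nt. BET1 therefore had the canonical signal at its distal site, and GOSR2 had it at its 2 upstream sites.

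SEC22B, YKT6 and STX5 show the other arrangements among the 14 PACs. The first and second SEC22B sites are 804 nt apart in exon 5 on the minus strand of chromosome 1, and the second has AAUAAA. The YKT6 sites are 1743 nt apart in exon 7 on the plus strand of chromosome 7, and both have rare variants. The STX5 site, on the minus strand of chromosome 11, had none of the 12 hexamers searched on the RNA strand in the 50 nt before it, which were AAUAAA and single-base variants of it.
SEC22B second, chr1:120155204-120155233: gcaatgaAATAAAtacttgtagaatgttca
YKT6 first, chr7:44212521-44212550: tgaaacCATAAActccgactggcttctgta
YKT6 second, chr7:44214264-44214293: cctgtctgGATAAAgttgtcttgaaatttc
STX5, chr11:62806897-62806926: ctcccaattacagcaagactgtcagcctca

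Searched on the RNA strand in the 50 nt before the site, AAUAAA or AUUAAA stood at 10 of 14 PACs, or 71.4%, against 83.7% of the 14109 PACs in 3′ UTRs. A UGUA stood in the 100 nt before 9 of 14 PACs, or 64.3%, against 58.1% of those PACs. BET1L at chr11:202925 on the minus strand, GOSR1 at chr17:30525630 on the plus strand and USO1 at chr4:75814212 on the plus strand each had a single PAC in the 3′ UTR with AAUAAA. With the first SEC22B site left out, the 20 nt after the dominant site held between 2 and 8 A bases, with 8 at the first and second GOSR2 sites.

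BET1 mRNA ended less often at the site next to the stop codon when cells were given L-lactate. Levels are in RPM, the tags of a PAC per 1000000 tags of its library. With 1 tag per cleaved end, RPM needs no correction for length. The proximal BET1 PAC had 11.8 RPM with L-lactate and 22.0 RPM in the control of KYSE30. It had 15.1 RPM with L-lactate and 27.2 RPM in the control of TE-1. In both lines the L-lactate library had the lower value. BET1 was chosen on the usage that its PAC values make up, so the intervals of these values and ratios describe counting error and are no test. The ratio of L-lactate to control was 0.540 (95% interval 0.410 to 0.706) in KYSE30 and 0.555 (0.447 to 0.686) in TE-1.

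The distal BET1 PAC was higher by less than the proximal PAC was lower. It had 17.6 RPM with L-lactate and 13.1 RPM in the control of KYSE30, a ratio of 1.34 (1.02 to 1.77). It had 13.1 RPM with L-lactate and 11.4 RPM in the control of TE-1, a ratio of 1.15 (0.883 to 1.51). The interval of the ratio reached below 1 in TE-1 but not in KYSE30.

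**Figure D1:**
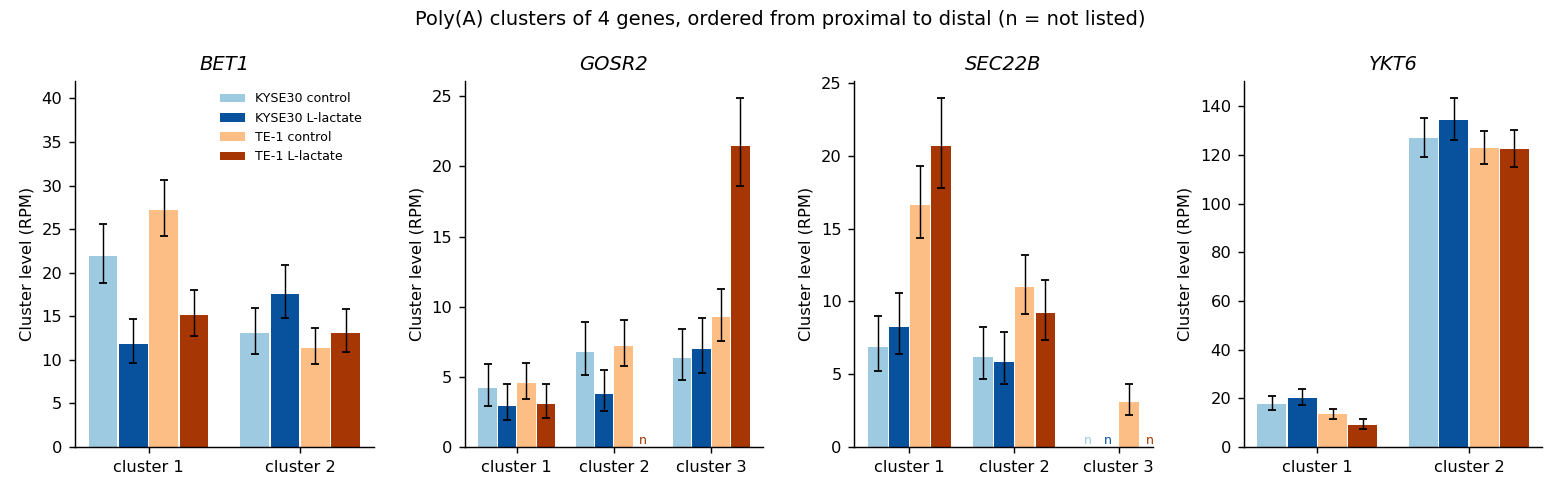
Level in RPM (y axis) of each PAC, ordered from proximal to distal (x axis), in the 4 genes with more than 1 PAC. Bars are single libraries, error bars are Wilson 95% intervals for counting error, and n marks a PAC that a library does not list. The proximal BET1 PAC is lower with L-lactate in both lines, at 11.8 against 22.0 RPM and 15.1 against 27.2 RPM, and the third GOSR2 PAC stands out at 21.5 RPM in TE-1 given L-lactate.

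Distal usage is the share of tags at the most distal PAC among the PACs of the gene with at least 5 RPM in a library of the line. For BET1 it was 59.7% (Wilson 95% interval 53.0 to 66.1; 126 of 211 tags) with L-lactate and 37.3% (31.7 to 43.3; 97 of 260 tags) in the control of KYSE30. It was 46.4% (40.2 to 52.8; 111 of 239 tags) with L-lactate and 29.4% (25.2 to 34.1; 118 of 401 tags) in the control of TE-1. KYSE30 was above TE-1 under each treatment, and L-lactate was above control in each line. The difference with L-lactate was 22.4 percentage points (Newcombe 95% interval 13.4 to 30.9) in KYSE30 and 17.02 (9.26 to 24.6) in TE-1.

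GOSR2 RNA also ended more often at the last of its sites with L-lactate, and the PAC values behind this are given for each line, without a test between them. In KYSE30 the second PAC had 3.76 RPM with L-lactate and 6.73 RPM in the control, a ratio of 0.559 (0.336 to 0.910), while the third had 6.97 and 6.33 RPM, a ratio of 1.10 (0.724 to 1.68). In TE-1 the second PAC had 7.22 RPM in the control and was not listed with L-lactate, and the third had 21.5 RPM with L-lactate and 9.24 RPM in the control. That ratio was 2.33 (1.81 to 3.01). The lower share of the second PAC thus went with the last PAC at about the control level in KYSE30 and with a higher last PAC in TE-1. The first PAC stayed under 5 RPM, with 2.93 and 4.18 RPM in KYSE30 and 3.07 and 4.52 RPM in TE-1 for L-lactate and control.

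Among the second and the third PACs of GOSR2, distal usage was 64.9% (53.8 to 74.7; 50 of 77 tags) with L-lactate and 48.4% (38.8 to 58.3; 47 of 97 tags) in the control of KYSE30. The difference was 16.5 points (1.64 to 30.2). In TE-1 it was 100% (97.9 to 100; 182 of 182 tags) with L-lactate and 56.1% (48.6 to 63.4; 96 of 171 tags) in the control, a difference of 43.9 points. The value of 100% rests on the second PAC being unlisted. It is a PAC of a single site, and the lowest value listed for such PACs in that library was 3.07 RPM, or 26 tags. With the second PAC set at that value, distal usage was 87.5% and the difference 31.4 points. With all 3 PACs in the denominator, distal usage was 51.0% with L-lactate and 36.7% in the control of KYSE30, and 87.5% and 44.04% in TE-1.

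SEC22B and YKT6, the other genes with more than 1 PAC of at least 5 RPM, showed smaller values. SEC22B, the R-SNARE of the ER-to-Golgi bundle, had a distal usage of 41.6% with L-lactate and 47.4% in the control of KYSE30, a difference of -5.84 points (-19.3 to 7.88). In TE-1 it was 30.8% and 39.7%, a difference of -8.89 points (-16.8 to -0.802). Both differences were under 10 points, and that in KYSE30 had the opposite sign, 1.98 points, when only the dominant site of each PAC was counted. That in TE-1 was -4.91 points with every PAC in the denominator. At a minimum of 1 RPM the third SEC22B PAC became the distal one, and the difference was -10.03 points, past the 10-point mark. That value is not the change of the second PAC. The third SEC22B PAC was listed only in the TE-1 control, at 3.08 RPM. This was the lowest value listed in that library for a PAC of a single site. Near-identical copies of SEC22B exist in the genome, so its values are uncertain to the extent that reads were shared, although the 3 annotated copies examined (SEC22B2P, SEC22B3P and SEC22B4P) had 0 PACs.

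YKT6, an R-SNARE held to membranes by lipid, used its distal site in most transcripts of every library. Distal usage was 86.9% with L-lactate and 87.7% in the control of KYSE30, and 93.0% and 90.2% in TE-1. The differences were -0.784 points (-3.58 to 2.02) and 2.81 points (0.623 to 4.96). The proximal YKT6 PAC had 9.21 RPM with L-lactate and 13.4 RPM in the control of TE-1, a ratio of 0.689 (0.515 to 0.915), while the distal PAC had 122 and 123 RPM.

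**Figure D2:**
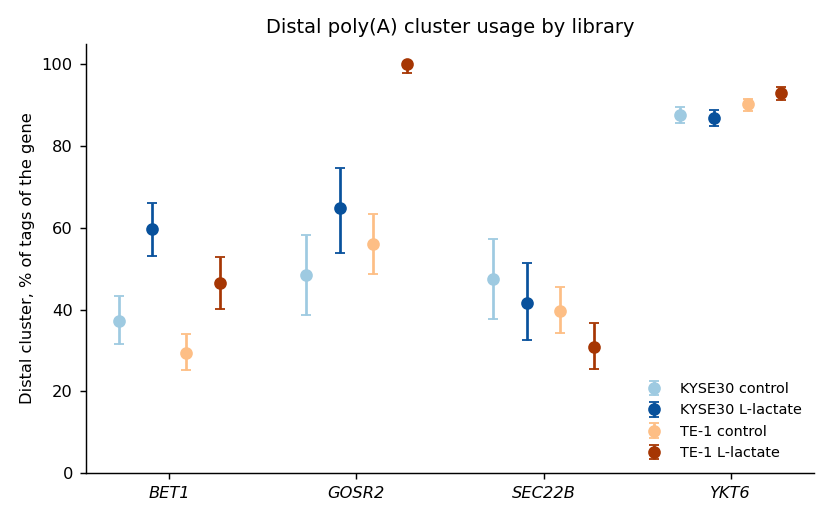
Distal usage in percent of tags (y axis) of the 4 genes with at least 2 PACs of 5 RPM (x axis), by library. Points are single libraries with Wilson 95% intervals; for GOSR2 the denominator holds the second and the third PACs. BET1 is at 59.7% against 37.3% and 46.4% against 29.4%, whereas YKT6 stays between 86.9% and 93.0%.

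Distal usage was at least 10 points higher with L-lactate in 2 of the 4 genes in KYSE30, where 3.34% of 1706 genes were, and in 2 of the 4 in TE-1, where 6.16% of 1720 genes were. Across both lines 15 of 1307 genes, or 1.15%, passed this mark. The members were chosen on these values, so the counts say nothing about the family. By the smaller rise of the 2 lines, BET1 was number 2 and GOSR2 number 3 of the 15 genes. The last genes inside the mark were TMA16 and PWWP3A, with smaller rises of 11.1 and 10.5 points, and the first outside were RAB3GAP2 and FASTKD2, both with 9.63 points. In rank from the largest rise, BET1 was number 4 in KYSE30 and 24 in TE-1, and GOSR2 was number 12 and 1.

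**Figure D3:**
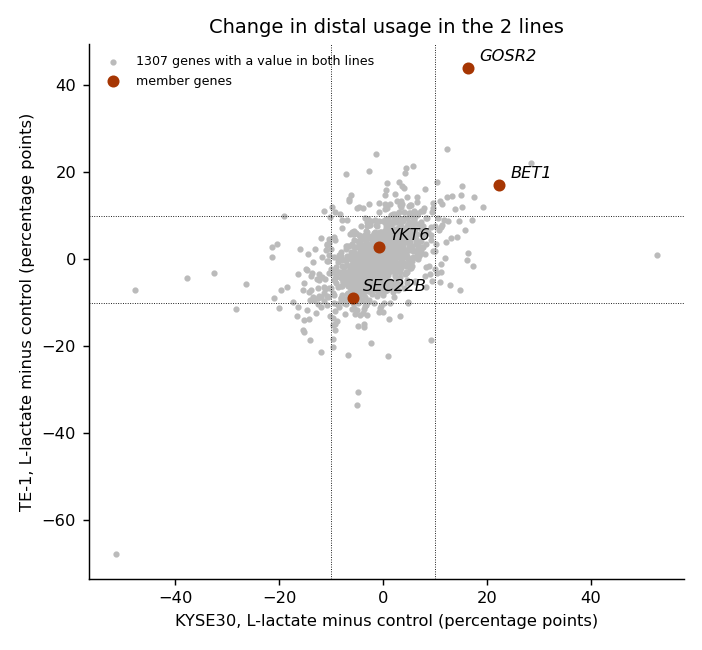
Difference in distal usage, L-lactate minus control, in percentage points, in KYSE30 (x axis) and TE-1 (y axis), for the 1307 genes with a value in both lines. Dotted lines mark 10 points, and orange points are the members BET1 (22.4 and 17.02), GOSR2 (16.5 and 43.9), SEC22B (-5.84 and -8.89) and YKT6 (-0.784 and 2.81).

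By root mean square difference of distal usage over the 4 libraries, among 1306 other genes, the patterns nearest to BET1 were those of HADH (5.32 points), SOCS5 (5.97) and IER3IP1 (6.34). HADH, a mitochondrial enzyme of fatty acid oxidation, had 51.4% with L-lactate and 43.3% in the control of KYSE30, and 44.03% and 27.9% in TE-1. Nearest to GOSR2 were FPGT (14.3 points), INTS7 (15.3) and RWDD4 (15.4). These distances use the GOSR2 value of 100% in TE-1 given L-lactate, which rests on an unlisted PAC. With that PAC at the lowest listed value the share was 87.5%, and the distances were not recomputed there. Their order and size therefore depend on the listing, and their distance cannot be set against that of HADH from BET1.

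Of 25 pairs of L-lactate and control libraries of a line that both listed a member PAC, 24 had the dominant site at the same base. The exception was the first SEC22B PAC in TE-1, with a distance of 8 nt. The spread around that base was not the same in every library. The distal BET1 PAC held 43.2% to 53.6% of its tags at the dominant site, and its width, the span between the lower and the upper quantile position of its tags as deposited, was 80 nt in the L-lactate library of KYSE30 and 69 nt in the other 3. The width of the proximal BET1 PAC was 12 nt with L-lactate and 5 nt in the control of KYSE30, and 5 and 12 nt in TE-1. For USO1 the width was 72 nt in both KYSE30 libraries and 1 and 2 nt in TE-1.

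Summed over the PACs of a gene, the levels of the 8 genes spanned a wide range. YKT6 was highest, with 155 RPM with L-lactate and 145 RPM in the control of KYSE30 and 132 and 136 RPM in TE-1, and USO1 was next, with 77.8, 70.0, 64.1 and 58.9 RPM in the same order. No library of any other member came near these values. BET1 (28.2 to 38.6 RPM) and BET1L (27.9 to 34.5 RPM) overlapped across libraries, as did STX5 (20.1 to 25.4 RPM), SEC22B (13.1 to 30.7 RPM) and GOSR2 (13.7 to 24.6 RPM). GOSR1 was lowest by its mean over libraries (8.97 to 15.6 RPM), with a range that reached into those of SEC22B and GOSR2. Among 9383 genes with a mean of at least 5 RPM, YKT6 stood at percentile 87.7 and GOSR1 at percentile 18.2. A library pools many cells, so fewer cells with an RNA and less RNA per cell cannot be told apart.

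**Figure D4:**
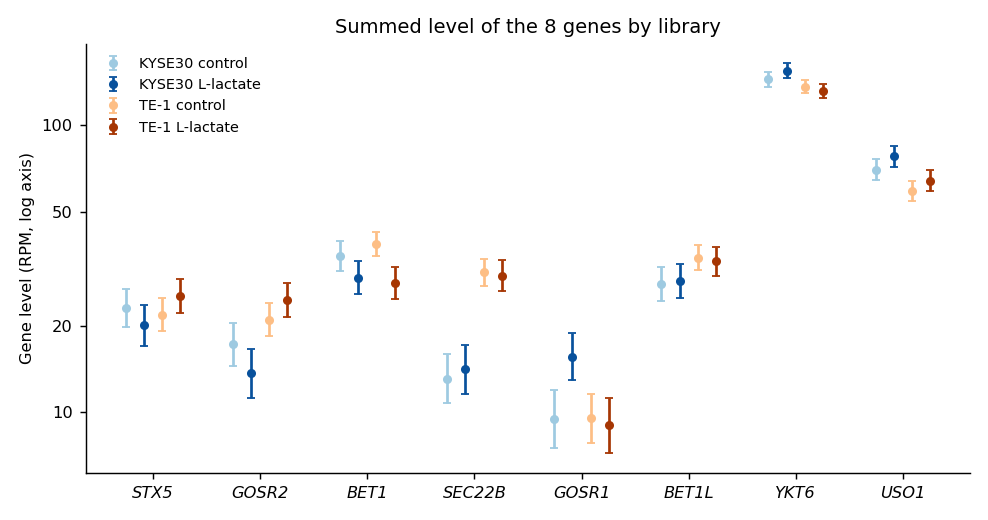
Summed level of each gene (x axis) in RPM on a log axis (y axis), by library, with Wilson 95% intervals for counting error. The genes of the ER-to-Golgi bundle are at the left, those of the bundle inside the Golgi follow, and USO1 is at the right; YKT6 lies between 132 and 155 RPM and GOSR1 between 8.97 and 15.6 RPM.

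GOSR1, the Golgi Qb-SNARE, was the member whose level passed 1.5-fold with L-lactate, and it did so in KYSE30. It had 15.6 RPM with L-lactate and 9.43 RPM in the control, a ratio of 1.66 (1.22 to 2.27). In TE-1 it had 8.97 and 9.53 RPM, a ratio of 0.942 (0.689 to 1.28). The L-lactate library of KYSE30 was thus above the other 3 libraries, which lay close together. These levels leave out a PAC 718 nt past the annotated end of GOSR1. That PAC had 5.16 RPM with L-lactate and 5.79 RPM in the control of KYSE30, and the ratio with it included was not computed. With a pseudocount of 5 the log2 difference in KYSE30 was 0.51, under the 1.5-fold mark. This was 1 of 8 members in KYSE30, where 3.89% of 9383 genes passed 1.5-fold in either direction on the log2(RPM + 1) scale, and 0 of 8 in TE-1, where 4.02% did.

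The level of BET1 as a whole was lower with L-lactate, since its proximal PAC lost more than the distal PAC gained. The ratio was 0.840 (0.697 to 1.01) in KYSE30 and 0.731 (0.621 to 0.861) in TE-1, both within 1.5-fold. GOSR2 had a ratio of 0.792 (0.603 to 1.04) in KYSE30 and 1.17 (0.964 to 1.42) in TE-1. STX5, the Qa-SNARE shared by both bundles, had ratios of 0.872 (0.693 to 1.09) and 1.16 (0.960 to 1.41). Both genes lay on different sides of 1 in the lines, with intervals that held 1. BET1L, SEC22B, YKT6 and USO1 had ratios between 0.966 and 1.11 in the lines. The median log2 difference of the 8 members was 0.06 in KYSE30 and -0.04 in TE-1, beside 0.00 and 0.03 over all genes.

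Level differences between TE-1 and KYSE30 were tested for the 6 members that were not chosen on their distal usage. The levels of BET1 and GOSR2 hold the PAC values that chose them and are given without a test. limma was fitted across 9383 genes on log2(RPM + 1) with the line and the treatment as terms. This left 1 residual degree of freedom per gene, and 10.99 in total after moderation over genes. The residual is how far the treatment difference departs between the lines, not spread between cultures of a line. SEC22B had the largest estimate of the 8 members. It had 14.1 RPM with L-lactate and 13.1 RPM in the control of KYSE30, and 29.9 and 30.7 RPM in TE-1, so that the lines did not overlap. Its log2 difference was 1.10 (SE 0.146, limma adjusted p = 3.2e-05), higher in TE-1 under both treatments.

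USO1 was lower in TE-1 (log2 difference -0.26, SE 0.0918, limma adjusted p = 0.0233), and this call was lost when each library was centred on its median (limma adjusted p = 0.0565). BET1L, YKT6, STX5 and GOSR1 did not pass the threshold of 0.05. BET1L had a log2 difference of 0.26 (limma adjusted p = 0.0739), and the centred fit gave 0.31 (limma adjusted p = 0.0341). YKT6 had -0.16 (limma adjusted p = 0.0872). STX5 had 0.13 and GOSR1 -0.36, with limma adjusted p of 0.469 and 0.142. GOSR2 had 13.7 and 17.2 RPM for L-lactate and control in KYSE30 and 24.6 and 20.97 RPM in TE-1. Its log2 difference was 0.80 between the L-lactate libraries and 0.27 between the control libraries. The latter is a ratio of 1.22 (0.974 to 1.53). BET1 had an estimate of 0.04.

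**Figure D5:**
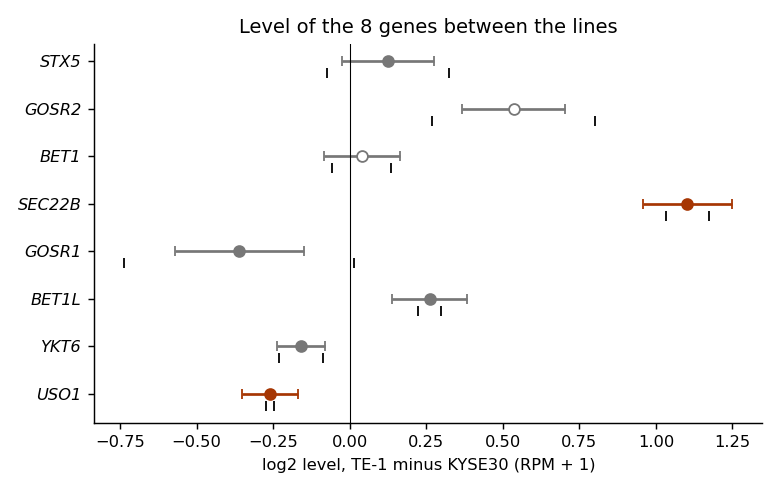
log2 difference in level on the RPM + 1 scale, TE-1 minus KYSE30 (x axis), of the 8 genes (y axis). Points are limma estimates with 1 SE, orange where the adjusted p is at most 0.05 and open for BET1 and GOSR2, which were not tested, and the ticks under each point are the differences between the L-lactate libraries and between the control libraries; SEC22B is at 1.10, GOSR2 at 0.54 and USO1 at -0.26.

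The count of 2 of 6 members past the threshold, 1 higher and 1 lower in TE-1, stood against 73.9% of all genes tested, 36.9% higher and 37% lower. The median log2 difference of all 8 members was 0.08, beside 0.00 over all genes.

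Distal usage between the lines was tested for SEC22B and YKT6, which were not chosen on it, by limma on the logit of the tag shares over 2130 genes. Of these, 0 of 2 passed, where 16.1% of genes did, and at an unadjusted p under 0.05 the count was also 0. The limma adjusted p was 0.147 for SEC22B and 0.181 for YKT6. For YKT6 the logit difference was 0.69 between the L-lactate libraries and 0.25 between the control libraries. BET1, without a test, had a mean of 48.5% in KYSE30 and 37.9% in TE-1.

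Other genes of membrane transport were followed through 5 lists of 87 genes, of which 78 were in the level test. The lists also hold genes that act outside the route between ER and Golgi, such as the endosomal SNARE VAMP3. Of the 78 genes, 22 were higher and 28 lower in TE-1, and 28 did not pass. Among all genes 36.9% were higher and 37% lower. COPII, the coat of vesicles that leave the ER, had 7 higher and 1 lower of 14 (median log2 difference 0.19), and COPI, the coat of vesicles that return from the Golgi, had 6 higher and 0 lower of 11 (median 0.23). The other SNAREs of the secretory pathway had 4 higher and 10 lower of 21 (median -0.22), and the factors that prime and take apart SNARE bundles had 1 higher and 4 lower of 7 (median -0.35). Golgi tethers had 4 higher and 13 lower of 25 (median -0.19). The lists were not tested as sets.

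Among the other SNAREs the largest differences past the threshold were those of USE1, an ER SNARE of the return route, and VAMP3, an endosomal SNARE. USE1 had 12.3 and 9.97 RPM for L-lactate and control in KYSE30 and 36.5 and 41.6 RPM in TE-1 (log2 difference 1.73, SE 0.158, limma adjusted p = 1.44e-06). VAMP3 had 93.5 and 94.4 RPM in KYSE30 and 34.0 and 24.3 RPM in TE-1 (log2 difference -1.67, SE 0.123, limma adjusted p = 2.05e-07). USE1 was thus higher and VAMP3 lower in TE-1, without overlap between the lines. Among priming factors, NAPG, the gamma form of SNAP, was lower in TE-1 by a log2 difference of -1.36, and SCFD1, the Sly1 protein that binds STX5, by -0.93.

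The genes of the coats named by the same rule were higher in TE-1. SEC13, of the outer COPII layer, differed by 1.24 on the log2 scale and SEC24A, a COPII cargo adaptor, by 1.09. The coatomer subunits COPG1 and COPA differed by 1.01 and 0.98. Of the TRAPP tether complex, TRAPPC4 was higher, with 48.4 and 38.0 RPM in KYSE30 and 146 and 159 RPM in TE-1 (log2 difference 1.80). TRAPPC11 was lower, with 47.1 and 47.7 RPM in KYSE30 and 9.45 and 11.6 RPM in TE-1 (log2 difference -2.07). These 2 subunits of the complex thus differed in opposite directions.

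With L-lactate, 1 of 78 genes of these lists passed 1.5-fold in KYSE30, where 3.89% of all genes did. It was the COPII subunit SEC24D, which had 19.7 RPM with L-lactate and 12.5 RPM in the control, and its values in TE-1 were 21.7 and 15.0 RPM. In TE-1 2 of 78 passed, where 4.02% did, the tether subunits COG6 (9.33 and 5.00 RPM) and COG7 (11.2 and 5.39 RPM). Distal usage changed by at least 10 points in 0 of 19 list genes in KYSE30, where 9.2% of all genes did, and in 5 of 22 in TE-1, where 11.3% did. These 5 were STX18 (10.4 points), COG5 (12.7), TRAPPC2 (12.7), VAMP4 (-11.4) and STX16 (-14.9). For STX16 the TE-1 control stood at 100%, against 85.1% with L-lactate. Its difference thus rests on upstream tags taken as 0 where unlisted. None of the 16 list genes with a value in both lines passed 10 points the same way in both. The genes named in this paragraph were chosen after their values were seen.

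The libraries held between 7174991 and 10393799 tags, of which 92.5% to 93.1% were in listed PACs. Of 9 squamous or general epithelial markers, 5 were listed in KYSE30 libraries and 3 or 4 in TE-1 libraries. Their summed levels were 1125 to 1237 RPM and 430 to 504 RPM, and EPCAM held the largest part of the sum in KYSE30. KRT5, KRT14 and DSG3 had no PAC. Of the 6 others, 5 were lower in TE-1 past the limma threshold and 1, KRT17, was higher. EPCAM had 635 and 563 RPM for L-lactate and control in KYSE30 and 36.4 and 30.7 RPM in TE-1. CDH1 had 228 and 204 RPM in KYSE30. In TE-1 it had 1.30 RPM with L-lactate and was not listed in the control. TP63 and KRT6A were listed in KYSE30 and not in TE-1. KRT17 was not listed in KYSE30 and had 187 and 245 RPM with L-lactate and in the control of TE-1. Of 4 leukocyte markers CD68 alone was listed, at 3.48 to 15.2 RPM, and PTPRC had no PAC. Of 4 fibroblast markers 2 were listed in TE-1 libraries, at 8.50 and 12.5 RPM in sum, and 0 in KYSE30 libraries. Of 3 endothelial markers 1 was listed in KYSE30 libraries, at 11.2 and 16.2 RPM, and 0 in TE-1 libraries. These marker levels moved with the line, and their part in the line differences was not tested.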

How the data were processed

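PAS-seq tables of 4 libraries were used. Per the methods, trimmed reads were mapped on GRCh38 by HISAT2, and CAGEr called the sites. Sites under 1 TPM were excluded, sites within 24 nt were clustered, PACs of a single site under 3 TPM were removed, and PACs within 500 nt of each other and over 5 TPM were joined further. The deposited values are headed TPM and are RPM, the tags of a PAC per 1000000 tags of the library, as computed by the authors, with no correction for length. Steps between values gave whole tags (tolerance 0.0005 RPM from rounding plus 0.01 tags) and the depth. The lowest listed value was 1.06 to 1.12 RPM, and an unlisted PAC was taken as 0 in sums. The positions of the files, deposited as a first base counted from 0, were written counting from 1.

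PACs were placed on GENCODE 44 by overlap, 3′ UTRs of coding transcripts first. Gene levels used log2(RPM + 1) and genes with a mean of at least 5 RPM. L-lactate contrasts, with 1 library each, got no test. Shares have Wilson intervals, their differences Newcombe intervals and ratios exact conditional intervals, all at 95%. Line contrasts were fitted with limma 3.58.1 in R 4.3.3 with Benjamini-Hochberg adjustment over all genes, since an exact permutation of 2 against 2 libraries cannot go below p = 0.333. For the logit of distal usage 0.5 tags were added. The bases at the first SEC22B site are not reported here. The fits were checked on simulated tags. With 200 of 2130 genes changed by 20 points, the usage fit recovered 181 and also called 53 unchanged genes, more than its threshold implies. The simulated usage tags held counting error only. The share of genes called in the data may thus be too high, by an amount that was not measured.

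The members and gene lists were chosen with earlier results of these data known. All members are named, with the 2 genes per list of the largest line difference past the threshold, list genes changed by 10 points in usage the same way in both lines, and the 3 patterns nearest to BET1 and to GOSR2. Alternatives changed the minimum RPM, denominator, pseudocount, filter, centring, thresholds and windows. The tools were pandas 2.3.3 with NumPy 2.4.6, SciPy 1.17.1, matplotlib 3.10.9 and Python 3.11.15.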

Additional observations from a re-analysis of the deposited data

Results flagged for a closer look

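GOSR1 was picked out because its level with L-lactate passed 1.5-fold in KYSE30 and had the other sign in TE-1, where the difference lay within counting error. The log2 difference between L-lactate and control was 0.67 in KYSE30 and -0.078 in TE-1, with 112 and 70 tags in KYSE30 and 76 and 99 tags in TE-1. With 1 library per group the difference between the lines was not tested. The levels leave out the PAC 718 nt past the annotated end of GOSR1.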

How the results depend on the processing

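Of 244 values recomputed, 212 kept their direction and side of the threshold, or stayed within counting error or 1.5 times the count. Values that an alternative could not change are counted among the 212. With the dominant site alone, the rise of BET1 in distal usage was 22.3 points in KYSE30 and 13.5 in TE-1, against 22.4 and 17.02. The other alternatives could not change it, since both of its PACs were over 10 RPM and listed in all 4 libraries. The rise of GOSR2 was 14.3 to 19.7 points in KYSE30. In TE-1 it was 55.6 points with the dominant site alone and 31.4 points with unlisted PACs of a single site at the lowest listed value, the latter chosen after the data were seen. GOSR2 had no value at a minimum of 10 RPM, nor in TE-1 with PACs listed in both libraries. SEC22B had a logit difference between the lines of 1.09 at a minimum of 1 RPM, which took in the third of its PACs, against the opposite sign otherwise.

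Over all genes, usage changes numbered 402 in KYSE30 and 409 in TE-1 at a minimum of 1 RPM and 65 and 97 at 10 RPM. They numbered 515 and 614 from 5 points, 16 and 25 from 20 points, and 1191 and 1288 by a mean position past 24 nt, against 157 and 195 in the main analysis. Level changes numbered 119 and 146 with a pseudocount of 5, 110 and 115 past 2-fold, and 875 and 847 without a filter, against 365 and 377. Usage differences between the lines numbered 534 at 10 RPM against 342.

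The planned count models were not run. The deposited values are RPM and list no PAC under 8 to 11 tags, so the whole tags worked out from them were used for counting intervals and not as a complete count table. The labels give no replicate numbers, so no pairing beyond line and treatment was possible, and the line fit already held both as terms. The L-lactate effect with the line as a block was not tested, as BET1 and GOSR2 were chosen on it. PACs of GOSR2 and SEC22B with 21 to 182 tags per library gave wide intervals, and PACs of a single site under about 3 RPM were not listed.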

Other observations

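A further PAC was found 718 nt downstream of the annotated end of GOSR1 on the same strand, at chr17:30528310, outside any annotated gene and outside the span that defined the members. It had 5.16 RPM (37 tags) with L-lactate and 5.79 RPM (43 tags) in the control of KYSE30 cells, and it was not listed in TE-1 cells. It is a PAC of a single site, for which the lowest listed values in the TE-1 libraries were 3.07 and 3.08 RPM. Whether it is an end of GOSR1 RNA was not examined.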
